A study of Homo sapiens with 8 samples.

Results

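NEAT1, MALAT1, NORAD, MIR142HG and MIR22HG are long noncoding transcripts: 3 nuclear or scaffold RNAs and the hosts of 2 microRNAs. They were picked by symbol, 5 of the 58395 genes listed, from earlier results of these data in which NEAT1, MIR142HG and MIR22HG were lower in U than in CT polysome RNA. That comparison is therefore given below as a description, with no test, and the tests are kept for input RNA and for polysome against input RNA. The RNA came from OCI-AML3, an established human acute myeloid leukaemia cell line, infected with shCT or shFBL. FBL encodes fibrillarin, the methyltransferase that box C/D small nucleolar RNAs guide to ribosomal RNA. All cells, controls included, received cycloheximide, which holds ribosomes on the RNAs they are translating, and were lysed in a buffer with Triton X-100. The spun supernatant served both as input and as the load of a sucrose gradient, so input RNA is not whole-cell RNA, and how much nuclear RNA it held was not measured. Polysome RNA came from gradient fractions, and no source used here says which.

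There were 4 groups of 2 libraries: input CT, input U, polysome CT and polysome U. The titles' CT goes with the genotype label WT, and U with the label FBL knockdown. Input and polysome libraries of the same code, such as CT 1, come from 1 lysate. The labels do not say whether libraries of a group are separate cultures, so p-values measure only the spread between these libraries, which may be technical. Libraries held 22.2 to 43.1 mega-counts (M) in genes, the fewest in polysome U 2. FBL itself did not part the labels: it stood at 250 and 88.1 CPM (counts scaled to a common library total, after TMM) in input CT 1 and 2, and at 253 and 84.2 CPM in input U 1 and 2. In polysome RNA FBL was at 498 and 163 CPM in CT 1 and 2, against 499 and 165 CPM in U 1 and 2. It parted the libraries by number: in each of the 4 groups library 2 was lower than library 1. The main fit held no term for library number, so differences between libraries 1 and 2 of a group count as spread in its p-values. The 2 groups are therefore called the libraries labelled CT and U, and no difference between them is read as an effect of FBL loss. All 12 myeloid markers looked up had at least 10 reads in every input library and summed to 2670 to 3620 CPM over the 8 libraries. T cell markers summed to at most 0.128 CPM, erythroid and megakaryocyte markers to at most 3.57 and fibroblast and epithelial markers to at most 4.12 CPM.

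Long noncoding RNAs carry no long conserved reading frame. Many are transcribed and processed like mRNAs, and most of those studied here are best known from the nucleus. NEAT1 is the architectural RNA of paraspeckles, bodies in which it binds SFPQ, NONO and PSPC1, and its expression rises as myeloid cells differentiate. MALAT1 sits in nuclear speckles beside splicing factors and is among the most abundant nuclear RNAs of many cells. NORAD differs from both in being largely cytoplasmic: it binds Pumilio proteins, repressors of mRNAs that carry the same motif. MIR142HG and MIR22HG are the primary transcripts of miR-142, a microRNA of blood cells, and of miR-22, a microRNA of many tissues. The nuclear enzyme DROSHA with DGCR8 cuts the microRNA hairpin out of such a host.

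The sequences below show what sets these transcripts apart. NORAD (ENSG00000260032, chr20:36045622-36050960 on GRCh38, minus strand, a 5339-base lincRNA in GENCODE v29) held 15 matches to the Pumilio motif TGTANATA on its own strand, 2.81 per kb. In 3 places a pair of motifs started 9 bases apart. These pairs are printed 5′ to 3′ from the reference, on the minus strand, with both motifs of each pair in capitals, at chr20:36049495-36049527, chr20:36048298-36048330 and chr20:36047662-36047694 in the order of the transcript.
NORAD pair A: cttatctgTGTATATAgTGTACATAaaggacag
NORAD pair B: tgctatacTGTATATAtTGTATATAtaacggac
NORAD pair C: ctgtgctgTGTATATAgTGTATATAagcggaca
Of 8689 long noncoding genes with a transcript of at least 1000 bases, 18.1% held at least 1 match and 3, NORAD among them, held as many as 15. NEAT1 held 6 matches, 0.264 per kb. No match was found in the longest transcript of MALAT1, MIR142HG or MIR22HG. A match describes the letters and is not a measured binding site.

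**Figure D1:**
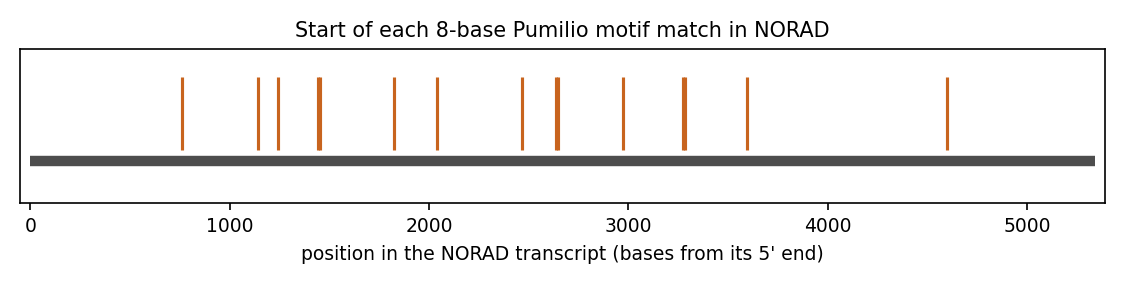
Start of each match to the 8-base Pumilio motif along the 5339-base NORAD transcript, in bases from its 5′ end (horizontal axis). The 15 matches are drawn as vertical lines, and the 3 pairs that start 9 bases apart merge into thicker lines.

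NEAT1 and MALAT1 lie next to each other on chromosome 11 and share an unusual 3′ end, carried by MALAT1 and by the long isoform of NEAT1. It is cut by RNase P just before a tRNA-like small RNA and has no ordinary poly(A) tail. The short isoform of NEAT1 ends earlier, in an ordinary poly(A) tail, and gene counts do not tell the isoforms apart. U-rich motifs and an A-rich tract fold into a triple helix that shields the end from decay. NEAT1 (ENSG00000245532, chr11:65422774-65445540, plus strand, exons over 22.8 kb) and MALAT1 (ENSG00000251562, chr11:65497688-65506516, plus strand, 8829 bases of exon) are both lincRNAs in GENCODE v29. Their ends are shown because libraries that select poly(A) may capture such RNAs differently from other transcripts, and no source used here states the selection. The last 110 bases before the tRNA-like gene are printed, from chr11:65445431-65445540 for NEAT1 and chr11:65506007-65506116 for MALAT1, with the U-rich motifs (as T) and the A-rich tract in capitals.
NEAT1 3′ end: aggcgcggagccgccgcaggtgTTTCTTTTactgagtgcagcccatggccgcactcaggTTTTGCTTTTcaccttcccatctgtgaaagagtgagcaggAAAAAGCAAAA
MALAT1 3′ end: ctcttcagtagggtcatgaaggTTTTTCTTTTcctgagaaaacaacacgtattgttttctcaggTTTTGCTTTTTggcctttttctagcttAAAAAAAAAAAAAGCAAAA

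The products of the 2 host transcripts identify them. MIR142HG (ENSG00000265206, chr17:58330884-58332508, minus strand, 1625 bases of exon, type antisense in GENCODE v29) carries the miR-142 hairpin within its exon. MIR22HG (ENSG00000186594, chr17:1711493-1717174, minus strand, 2986 bases of exon, lincRNA) carries the miR-22 hairpin, also in an exon. The mature sequences, from RefSeq on GRCh38.p14, are printed 5′ to 3′ with the seed, bases 2 to 8, in capitals.
hsa-miR-142-5p: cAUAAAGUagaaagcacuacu
hsa-miR-142-3p: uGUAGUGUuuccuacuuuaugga
hsa-miR-22-5p: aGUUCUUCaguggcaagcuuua
hsa-miR-22-3p: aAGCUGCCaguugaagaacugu
The 4 seeds differ. The mature microRNAs are far shorter than the hosts and were not measured here: the rows of the MIR142 and MIR22 hairpins had 0 reads in all 8 libraries. The hairpins cover 87 bases (5.35%) of the MIR142HG exon and 85 bases (2.85%) of MIR22HG exons. Reads that overlap 2 annotated genes are usually set aside by the counting tool, so the host values come from the rest of each transcript.

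Levels between genes were compared per kilobase of exon. In input RNA MIR142HG was the highest, at 144 to 302 CPM per kb, rank 1 when set against the 2084 other long noncoding genes that passed the low-count filter. Of the 5, NEAT1 came next at 19.8 to 28.4 CPM per kb and NORAD after it at 11 to 13.9 CPM per kb. MALAT1 stood at 2.62 to 3.27 and MIR22HG at 1.17 to 2.36 CPM per kb. Set against the same 2084 genes, each on its own, NEAT1 ranked 27, NORAD 65, MALAT1 297 and MIR22HG 473 per kb, with NEAT1 scaled by the exon length of its long isoform. The aligner used can lose reads that cross introns, and the exons of MIR142HG, NEAT1, NORAD and MALAT1 cover their loci without a gap. These ranks may thus favour them over spliced genes, which was not tested. The input ranges of neighbours among the 5 did not overlap. In polysome RNA the order was less clear. MIR142HG ranged from 15.3 to 101 CPM per kb, and MALAT1 from 0.251 to 34.5, which spanned the ranges of NEAT1 (1.44 to 3.74), NORAD (2.85 to 3.7) and part of that of MIR22HG (0 to 0.32). Together the 5 transcripts took 0.0852% to 0.138% of gene counts in input libraries and 0.00796% to 0.051% in polysome libraries. MALAT1 was thus a minor RNA of these supernatants: 52 other long noncoding genes had a higher input CPM, while none had a higher one than NEAT1 or MIR142HG outside that pair.

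**Figure D2:**
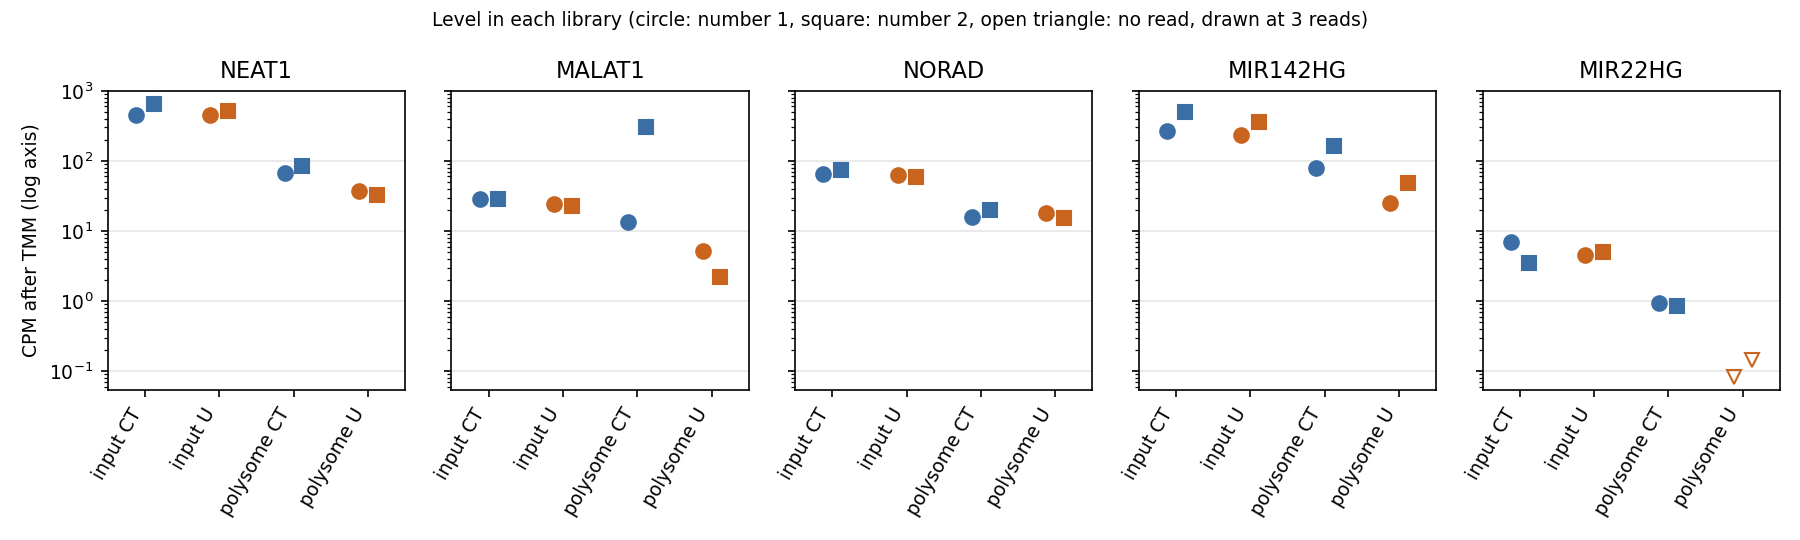
CPM after TMM (vertical log axis, the same for all panels and not corrected for length) of each transcript in the 8 libraries. Circles are library number 1, squares number 2, blue CT, orange U, and open triangles libraries with no read, drawn at 3 reads; MALAT1 in polysome CT 2, at 304 CPM, stands above its other 7 libraries.

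Polysome against input RNA asks which transcripts were found in the gradient fractions taken as polysomes, relative to the rest of the transcriptome. Binding to ribosomes itself was not measured. NEAT1, NORAD, MIR142HG and MIR22HG were lower in polysome RNA. The fitted folds were 3.76 for NORAD, 5.07 for MIR142HG and 9.98 for NEAT1, and pooled MIR22HG reads gave 10.1-fold, a value that averages CT lysates with reads and U lysates without. For each of the 4, every polysome library lay below every input library. MALAT1 did not pass the test. So 4 of the 5 were called lower, where 22.8% of the 16503 genes tested were called lower, 20% higher and 42.9% either way (edgeR quasi-likelihood F test, Benjamini-Hochberg adjusted p under 0.05). The polysome U libraries, whose low values picked NEAT1, MIR142HG and MIR22HG, enter these tests. In 22.7% of genes every polysome library lay below every input library. These values are relative to the other RNAs of a library, and a change shared by all RNAs would not show. Polysome libraries also held less mitochondrial ribosomal RNA, which took 0.0426% to 0.102% of gene counts there and 1.25% to 1.52% in input libraries; its part in these differences was not tested.

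NEAT1 stood at 451, 646, 451 and 510 CPM in input CT 1, CT 2, U 1 and U 2. In polysome RNA of the same lysates it was at 66.2, 85.2, 37 and 32.8 CPM. Its polysome level was thus 14.7% and 13.2% of the input level in the CT lysates, and 8.2% and 6.44% in the U lysates. All 4 lysates had NEAT1 low in polysomes, and the U lysates lay below both CT lysates. Averaged over both labels the log2 fold change was -3.32 (SE 0.14, adjusted p = 4.8e-07, edgeR), a 9.98-fold lower level. The polysome U libraries whose low values picked NEAT1 enter this fit, so fold and p-value are not independent of that choice. Only 3.26% of protein-coding genes and 21.7% of other long noncoding genes had a lower log2 fold change.

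NORAD had the most even polysome share of the 5 over the lysates. It stood at 64.8, 74.3, 63.4 and 58.9 CPM in the input libraries (CT 1, CT 2, U 1, U 2) and at 16.1, 19.7, 18.3 and 15.2 CPM in the polysome libraries. The polysome level was 24.9%, 26.6%, 28.8% and 25.9% of input, with CT and U lysates interleaved. The log2 fold change was -1.91 (SE 0.12, adjusted p = 2.7e-06, edgeR), and 7.57% of protein-coding genes lay lower. NORAD kept a larger share of its input level in polysomes than NEAT1 in each of the 4 lysates. That did not hold against MIR142HG and MALAT1, whose shares were larger than that of NORAD in the CT lysates and smaller in the U lysates. Differences between the transcripts were not tested.

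MIR142HG differed between libraries of a group. It stood at 267, 491, 235 and 364 CPM in input CT 1, CT 2, U 1 and U 2, with the libraries numbered 2 above those numbered 1. In polysome RNA it was at 80.2, 164, 24.9 and 48 CPM, with the same order of numbers. Expressed per lysate, these levels came to 30% and 33.3% of input with label CT and to 10.6% and 13.2% with label U. The log2 fold change over both labels was -2.34 (SE 0.30, adjusted p = 1.4e-04, edgeR), a 5.07-fold lower level. This fit holds the polysome U values by which MIR142HG was picked and is not independent of that choice. An antisense neighbour, TSPOAP1-AS1, shares no exon with it and had at most 60 reads in any library.

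MIR22HG was the scarcest, and its values rest on few reads. Input libraries held 282, 128, 154 and 237 reads (CT 1, CT 2, U 1, U 2), or 7.04, 3.48, 4.57 and 5.07 CPM. Polysome CT 1 and CT 2 held 33 and 31 reads, or 0.955 and 0.854 CPM, and neither polysome U library held any. Both groups of polysome libraries lay below all input libraries. Within the CT lysates the polysome level was 13.6% and 24.5% of input. Against a floor of 3 counts per library it was at least 54.6-fold lower than input in lysate U 1 and at least 35.1-fold lower in lysate U 2. Summed over all libraries, 801 input reads stood against 64 polysome reads, 10.1-fold lower in CPM. The adjusted p was 6.2e-05 (edgeR), and 0.011 (edgeR) with no term for the label. Both draw on the polysome U zeros by which MIR22HG was picked, so they are not independent of that choice. The fitted fold change depends on how zeros are handled and is not given. WDR81, which overlaps the locus on the opposite strand with no shared exon, had 1757 to 5659 reads per library.

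MALAT1 stood apart because of 1 library. In input it was even, at 28.8, 28.2, 24.7 and 23.1 CPM (CT 1, CT 2, U 1, U 2). In polysome RNA it was at 13.5 CPM (467 reads) in CT 1 and at 304 CPM (11044 reads) in CT 2. The U libraries held 5.21 CPM (187 reads) and 2.22 CPM (46 reads). Polysome CT 2 was thus 22.5-fold above CT 1, the largest ratio in that direction between these 2 libraries among the 8071 genes with at least 10 CPM in either, and the only one of at least 16-fold. Polysome levels were 46.9%, 21.1% and 9.59% of input in lysates CT 1, U 1 and U 2, but 1080% in CT 2. With all libraries the log2 fold change was -0.08 (SE 0.67, adjusted p = 0.944, edgeR), and -0.74 (adjusted p = 0.207, edgeR) with libraries paired by lysate. Without polysome CT 2 it was -1.87, so the value for MALAT1 depends on that 1 library. Reads aligned to more than 1 place made up 4.95% in polysome CT 2 and 3.41% to 3.75% in the other polysome libraries. Polysome CT 2 had 15910 genes with reads, against 14344 to 15142 in the others. What set that library apart was not tested.

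**Figure D3:**
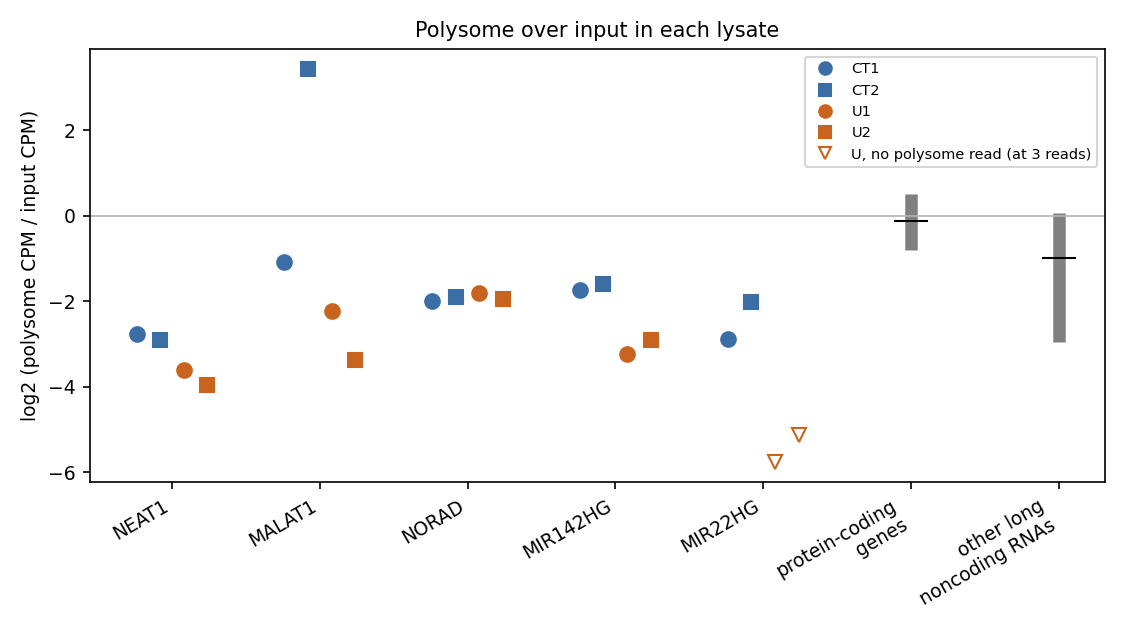
Log2 ratio of polysome CPM to input CPM (vertical axis) for each transcript in each of the 4 lysates; downward open triangles are upper bounds for MIR22HG in the U lysates, from a floor of 3 counts, and grey bars with a black line give the quartiles and median of fitted log2 fold changes of protein-coding and other long noncoding genes. NORAD lies between -2.01 and -1.80 in all 4, NEAT1 and MIR142HG lie lower in U than in CT lysates, and MALAT1 spans -3.38 to 3.43.

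Other noncoding transcripts show how usual this low polysome share was. Over the 2084 other long noncoding genes tested the median log2 fold change of polysome against input was -0.99 (quartiles -2.95 and 0.06), against -0.12 (-0.80 and 0.51) for 13091 protein-coding genes. Of the long noncoding genes 17.8% were called lower and 2.88% higher. NORAD and MIR142HG lay between the lower quartile and the median of the long noncoding genes, and NEAT1 lay below the lower quartile. Of the 2084 genes only 296 had a higher input CPM than MIR22HG, and no bound was set for a group at 0 reads. How far fits of such scarce genes set the quartiles was not tested.

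Among 28 other microRNA host transcripts, 22 passed the low-count filter, of which 10 fell and 1 rose in polysome RNA. Their median log2 fold change was -1.18, or -0.83 with 3 genes that had a group at 0 set to their bound, against -0.22 for all genes tested. MIR223HG, host of the myeloid miR-223, fell by 1.91 on the log2 scale (SE 0.19). MIR23AHG, host of the miR-23a cluster, fell by 2.47 (SE 0.27) and DLEU2, host of miR-15a and miR-16-1, fell by 2.90 (SE 0.39). MIR155HG fell by 1.54 (SE 0.27) and MIR210HG by 0.66 (SE 0.21). MIRLET7BHG, a let-7 host, went the other way: it rose by 0.82 (SE 0.12, adjusted p = 2.9e-04, edgeR), from 66.7 ± 9.21 CPM in input CT and 58.5 ± 1.04 CPM in input U to 114 ± 21.4 and 106 ± 13.1 CPM in polysome CT and U (SD, n = 2 each). MIR4435-2HG, at 0.32 (SE 0.20, adjusted p = 0.231, edgeR), was not called. A low polysome level was thus common among microRNA hosts but not general. Their medians of -1.18 and -0.83 lay on either side of the -0.99 of the long noncoding genes above, for which no bound was set. Called lower were 10 of 22 hosts, and 17.8% of those long noncoding genes. Whether a low polysome level is particular to hosts was not tested.

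Of 8 other long noncoding RNAs reported as nuclear or chromatin-bound that were tested, 5 fell and none rose, with a median of -0.89. TUG1 changed by -0.85 (SE 0.12), HOTAIRM1, a transcript of the HOXA locus induced in myeloid differentiation, by -0.94 (SE 0.24), and HOTTIP, from the other end of that locus, by -0.70 (SE 0.12). Host transcripts of small nucleolar RNAs, whose spliced products are known to be bound by ribosomes and rapidly degraded, had the same median, -0.89: 13 of 16 fell and 1 rose. SNHG3 fell by 4.15 (SE 0.09), more than NEAT1, NORAD, MIR142HG and MALAT1, and SNHG5, SNHG1 and GAS5 by 2.56, 1.84 and 1.67.

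**Figure D4:**
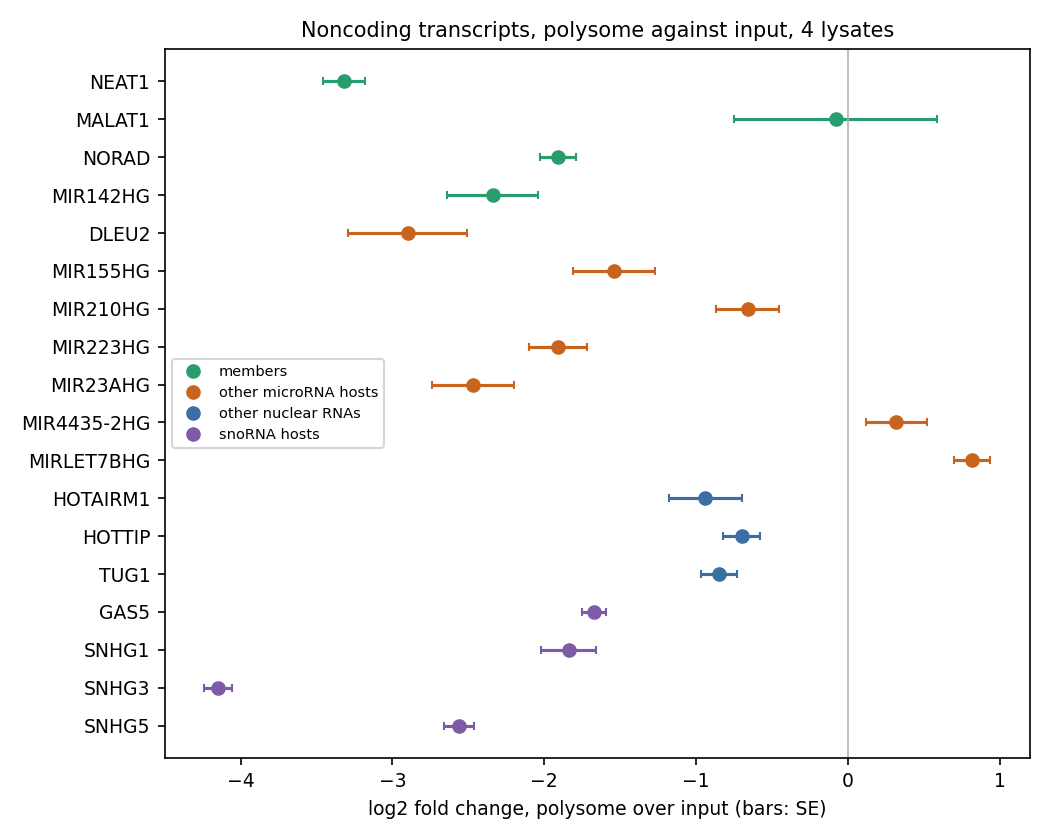
Log2 fold change of polysome against input RNA (horizontal axis, bars are SE, 4 lysates) for NEAT1, MALAT1, NORAD and MIR142HG and for the other microRNA hosts, nuclear long noncoding RNAs and small nucleolar RNA hosts named in the text. Most lie left of 0, SNHG3 farthest at -4.15, and MIRLET7BHG lies right of it at 0.82.

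The mRNAs of the proteins that bind, process or respond to these RNAs were read in the same comparison. Of 13091 protein-coding genes tested, 24.2% were called lower and 24.4% higher. With genes filtered at a mean of 10 CPM, 2857 were called lower and 2852 higher. After TMM, 8159 genes averaged at least that much. Most genes of these lists are that abundant, so the counts below are descriptions and are not read as traits of the lists. Of 7 NORAD-bound proteins 5 fell in polysome RNA and 1 rose (median -0.95). PUM2, a Pumilio protein, fell by 0.95 (SE 0.11), from 126 ± 1.27 CPM in input CT and 115 ± 7.84 in input U to 78.6 ± 1.23 and 49.3 ± 11.9 CPM in polysome CT and U (SD, n = 2 each). CDC5L, a splicing factor, fell by 1.16 (SE 0.13) and KHDRBS1, an RNA-binding protein, by 0.98 (SE 0.08).

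Of 18 mRNAs of paraspeckle proteins 9 fell and 4 rose, with a median of -0.24, close to that of all genes. Among those that fell, HNRNPH3 went from 132 ± 10 CPM in input CT and 114 ± 4.64 in input U to 70.6 ± 19.2 and 52.8 ± 10.6 CPM in polysome CT and U (SD, n = 2 each). HNRNPA1 changed by -0.95 (SE 0.06), TAF15 by -0.62 (SE 0.17) and PSPC1 by -0.52 (SE 0.10). Of 14 mRNAs of nuclear speckle proteins, the compartment of MALAT1, 9 fell and 1 rose (median -0.88). They included the export factor THOC2 (-1.36, SE 0.12), the splicing factor kinase CLK1 (-1.31, SE 0.14), PNN (-1.26, SE 0.30) and LUC7L3 (-1.25, SE 0.19). PNN and LUC7L3 were among genes uneven between the polysome CT libraries, with 43.8 ± 34.8 and 131 ± 66.6 CPM (SD, n = 2).

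Proteins that process microRNAs or act with them showed no common direction: 5 of 16 mRNAs rose and 6 fell (median -0.17). AGO1, an effector that carries microRNAs, rose by 1.23 (SE 0.12) and DGCR8, the partner of DROSHA, by 0.81 (SE 0.10), while TNRC6C fell by 0.91 (SE 0.14) and PRKRA by 0.86 (SE 0.26). Of 19 mRNAs for nuclear decay factors and for end processing proteins of MALAT1 and NEAT1, RNase P subunits among them, 5 rose and 5 fell (median -0.14). The RNase P and MRP subunits RPP25 (1.06, SE 0.11) and POP7 (1.02, SE 0.11) were higher in polysome RNA. DIS3 and ZCCHC8, of the exosome and its nuclear targeting complex, fell by 0.93 (SE 0.15) and 0.87 (SE 0.16).

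In input RNA the libraries labelled U were compared with those labelled CT. None of the 5 transcripts was called, and no gene of 16503 was (0%, edgeR); 744 had an unadjusted p under 0.05, and DESeq2 called 60 and limma voom 3. In the values by library given above, MALAT1 and NORAD had both U libraries below both CT libraries, 2 of 5, where 20.3% of all genes did. NEAT1, MIR142HG and MIR22HG overlapped between the labels. Log2 fold changes were -0.19 for NEAT1 (95% interval -0.67 to 0.29, from the SE and 4 residual degrees of freedom), -0.19 for NORAD (-0.65 to 0.28) and -0.34 for MIR142HG (-1.45 to 0.77). For MIR22HG it was -0.13 (-1.73 to 1.48), and for MALAT1 -0.25 (-2.80 to 2.29), an interval widened by the polysome libraries that share its fit. All 5 had an adjusted p of 1 (edgeR). The sign for NEAT1 and MIR142HG rested on input CT 2, without which they were at 0.08 and 0.15, and that for MIR22HG on input CT 1, without which it was at 0.45. B cell markers summed to 4.65 to 6.69 CPM in input CT and 7.3 to 9.37 CPM in input U, with MS4A1 at 0; their part was not tested. With edgeR no gene of the 8 lists was called in this comparison. SNHG3, at -0.52 (adjusted p = 0.656, edgeR), was called lower by DESeq2, with no low-count filter and with the library number as a block, each at -0.55 or -0.52.

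In polysome RNA the labels differed more, and these values are the ones that chose the members. U libraries lay below both CT libraries for NEAT1, MALAT1, MIR142HG and MIR22HG, 4 of 5, and 23.6% of all genes did so; 0.63% of genes were called lower in U and 0.248% higher, 0.879% in all. These are 104 lower and 41 higher genes; upper-quartile scaling gave 48 and 53 and relative log expression scaling 76 and 47. Leaving out 1 library at a time gave from 0 calls, without polysome CT 2, to 1455, without polysome U 1. Set against the CT library of the same number, NEAT1 in U was at 55.9% (number 1) and 38.6% (number 2). MIR142HG was at 31.1% and 29.3%, the most even decrease of the 5. NORAD was at 113% and 77.2%, on both sides of equality.

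MIR22HG had 0 reads in both polysome U libraries, where the CT level would have given 51.2 reads in all. Against a floor of 3 counts per library it was at least 11.4-fold lower in U for number 1 and at least 5.9-fold lower for number 2. MALAT1 was at 38.6% for number 1 and at 0.729% for number 2, where the high polysome CT 2 library is the reference. The fitted log2 fold changes were -1.11 for NEAT1, -1.75 for MIR142HG and -0.10 for NORAD. MALAT1 was at -5.37 with all libraries and at -1.83 without polysome CT 2. The same numbers in input gave 100% and 78.9% for NEAT1, 87.9% and 74.1% for MIR142HG, 85.6% and 82.1% for MALAT1 and 64.9% and 146% for MIR22HG.

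**Figure D5:**
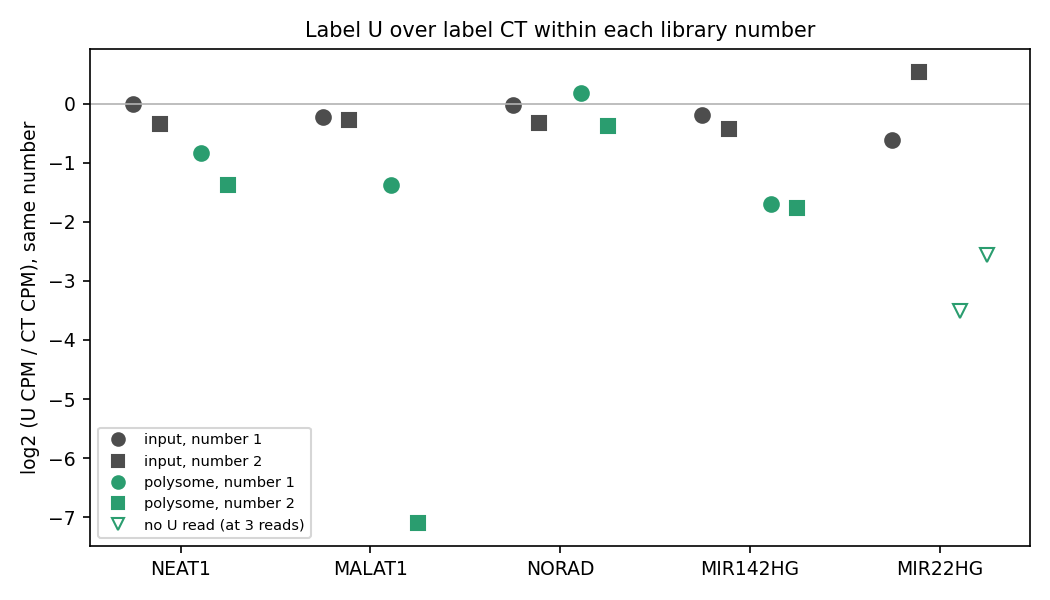
Log2 ratio of U to CT CPM within each library number (vertical axis), in input and in polysome RNA, for each transcript; open triangles mark MIR22HG, with no read in the polysome U libraries, drawn at 3 reads. In input MIR22HG lies on both sides of 0, and in polysome RNA NEAT1, MALAT1 and MIR142HG lie below 0 for both numbers while NORAD lies on both sides of it.

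The change in polysome RNA beyond that in input, the difference of both log2 fold changes, was -0.92 for NEAT1, -1.41 for MIR142HG and 0.09 for NORAD. For MALAT1 it was -5.11, and -1.57 without polysome CT 2. These values hold the contrast that chose the members and carry no test. Over all 16503 genes none was called for this difference with edgeR; 1046 had an unadjusted p under 0.05, the smallest adjusted p was 0.756, and DESeq2 called 3. Pairing the libraries by lysate gave 9 calls, each of them lower. Of the genes in the 8 lists only SRRM2, a scaffold protein of the speckles in which MALAT1 resides, was called between the labels in polysome RNA, at -0.66 (SE 0.09, adjusted p = 0.035, edgeR). Without polysome CT 2 no gene was called in that comparison.

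The genes most like each transcript across the 8 libraries were ranked by Pearson's r of log2(CPM + 0.5) over 8158 genes averaging 10 CPM or more. The 8 points share the split into input and polysome libraries, and the values are descriptions only. NEAT1 was most like TENT5A (0.994), LMO4 (0.992) and RANBP6 (0.992). NORAD was most like PABPC1 (0.998), the cytoplasmic poly(A)-binding protein gene, which fell from 707 to 870 CPM in input libraries to 105 to 127 CPM in polysome libraries; ATG12 (0.997) and TMX3 (0.996) followed. MIR142HG was most like IFFO1 (0.996), BTF3L4 (0.984) and MDM2 (0.983), the p53-regulating ubiquitin ligase gene. For MIR22HG they were RDH11 (0.997), SEC62 (0.992) and TIMP3 (0.990).

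MALAT1 was most like DDX46 (0.982), RDX (0.980) and UPF3A (0.977), a splicing helicase, a cytoskeletal linker and a factor of nonsense-mediated decay. These shared the high library: DDX46 was at 119 CPM in polysome CT 2 against 13.4 to 24.9 CPM in the other polysome libraries. RDX was at 30.8 CPM in polysome CT 2 and at 6.85 to 10.5 CPM in the others. Without polysome CT 2 the 3 values of r were 0.960, 0.953 and 0.951. The genes were picked with that library included, and the other libraries keep the split into input and polysome. These values therefore cannot show a particular likeness.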

How the data were processed

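Gene counts from 8 libraries of OCI-AML3 input and polysome RNA were used. The authors deposited raw counts per gene. Per the submitters' processing notes, Trimmomatic 0.38, Bowtie2 and HTSeq 0.11.2 were used on GRCh38. No source used here states the annotation release, strand setting or library selection. Spliced reads are not aligned across introns by Bowtie2, which can lose reads of spliced transcripts. Without a strand setting, sense and antisense reads cannot be told apart. Lines that name no gene, 13.2% to 15% of reads, were left out. Of 58395 identifiers, 58275 were in GENCODE v29, which gave positions and exon lengths.

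Libraries within a group differed by more than counting noise (chi-square per degree of freedom 22.1 to 48.7), and each was kept as a sample. The quasi-likelihood F test of edgeR 4.0.16 (R 4.3.3) was run with TMM, filterByExpr (16503 genes, all 5 members among them), a term for each of the 4 groups and 4 residual degrees of freedom. P-values were adjusted by Benjamini-Hochberg over all genes, and calls were made at 0.05. A floor is 3 counts and covers counting error only. The scripts were tested on simulated data. The 5 members, the 8 gene lists and the tests were chosen with earlier results of these data known. Named genes were up to 4 called members of each list with the largest change and a mean of at least 10 CPM, microRNA hosts with a mean of at least 5 CPM, and the 3 genes most like each member. SRRM2 was named after its values were seen. 1 gene that the rule names is not reported here.

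Input and gradient load came from 1 lysate per the labels' protocols, so polysome and input libraries of the same code are paired. Deviations from the group means correlated at 0.32 (CT) and 0.36 (U) within these pairs. Alternatives were DESeq2 1.42.0, limma voom 3.58.1, other scalings and filters, blocks and leaving out each library.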

Additional observations from a re-analysis of the deposited data

How the results depend on the processing

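NEAT1, NORAD and MIR142HG were lower in polysome than in input RNA in all 16 alternatives. Log2 fold changes were -3.47 to -3.21, -2.02 to -1.85 and -2.65 to -2.10. Polysome U values, by which NEAT1 and MIR142HG were picked, enter all of these fits. MALAT1 turned positive without a label term (1.64), without polysome CT 1 (0.39) and without polysome U 2 (0.13), and ranged from -1.87 to 0.39 when 1 library was left out. In input, leaving out 1 library gave -0.45 to 0.08 for NEAT1, -0.74 to 0.15 for MIR142HG and -0.56 to 0.45 for MIR22HG. Polysome against input gave 5537 to 7763 calls, against 7072.

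Counts between the labels moved with the setting, and the cause was not tested. In input, with 0 calls, DESeq2 gave 60, voom 3, no low-count filter 83, the replicate block, with the library number as the block, 66 and leaving out 1 library 0 to 1. In polysome RNA, with 145 calls, they were 1210, 297, 1117, 1053 with the block, 326 at a mean of 10 CPM, 0 with polysome libraries alone and 0 to 1455 leaving out 1 library. For the difference of changes, with 0 calls, they were DESeq2 3, no filter 55, the replicate block, here the lysate, 9 and leaving out 1 library 0 to 55. The labels do not say whether a library number marks a shared source between CT and U; deviations of same-numbered libraries correlated at 0.48 in input and 0.20 in polysome RNA. The lysate block changed no call of a member. Of 256 list counts under alternatives, 251 stayed within 1.5 times. MIR22HG had no value at a mean of 10 CPM, and the difference no fit with 1 fraction alone.

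Depth limits MIR22HG most: with 0 reads, each polysome U library allows up to 3, and bounds use that floor.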
